A study of Homo sapiens with 2 samples.

Results

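The 9 genes described here encode subunits of Polycomb repressive complex 1 (PRC1): the chromobox genes CBX2, CBX6, CBX7 and CBX8, the Polycomb group RING finger genes BMI1 and PCGF2, the RING-type ubiquitin ligase genes RING1 and RNF2, and the polyhomeotic gene PHC1. They were chosen by name from 20163 protein-coding genes. Their loci, the gene body together with 3 kb on both sides of the transcription start site (TSS), held 57 of 114060 accessibility peaks in the DMSO library and 47 of 161184 in the MAK683 library. Both libraries came from G401, an established kidney line of malignant rhabdoid origin that the study describes as deficient in the chromatin remodeler subunit SMARCB1. One culture received the solvent DMSO and the other 3 μM MAK683, an inhibitor that acts through EED, a subunit of PRC2, and blocks trimethylation of histone H3 lysine 27, and both were treated for 3 days before ATAC-seq. The study asked how the chromatin of these cells responds when PRC2 is inhibited.

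PRC1 attaches ubiquitin to histone H2A. Its catalytic core is RING1 or RNF2 paired with a PCGF protein. In canonical PRC1 this core also carries a CBX protein, whose chromodomain binds the histone H3 mark laid down by PRC2, and a PHC protein, which polymerizes and compacts chromatin. In variant PRC1, RYBP or YAF2 takes the place of the CBX protein and the complex can reach chromatin without the PRC2 mark. ATAC-seq reads where the Tn5 transposase can cut DNA. It measures neither the expression of these genes nor where their proteins bind.

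Each group had 1 library, so every difference below is a difference between these libraries and has no replicate check. No p-value was computed. Tags after filtering numbered 16598348 in DMSO and 18265284 in MAK683. A peak height is the number of tags over the summit per 1000000 tags of the library (RPM), and 1 tag was worth 0.0602 RPM in DMSO and 0.0547 RPM in MAK683. Intervals of heights and log2 ratios are 95% and cover counting error only, with no spread between replicates. The reads carry no molecular identifiers, and copies of the same molecule were limited only by keeping 1 tag per position. SMARCB1, used to check the line, had 0 peaks at its locus in either library. The stretch around its TSS without a peak spanned 669 kb in DMSO and 699 kb in MAK683, while the gene itself is 51.1 kb long.

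The reference sequences under the summits are shown for 5 members, because the results turn on the peaks nearest to their TSSs. They show the base composition under these summits, which lie at different distances from the TSS, and not that of whole promoters. Each is 151 bases of GRCh37 centred on the DMSO summit of that peak, read 5′ to 3′ on the strand of the gene, with every CpG in capitals. CBX2 (chr17:77751214-77751364, plus strand), CBX7 (chr22:39548746-39548896, minus strand), CBX8 (chr17:77770986-77771136, minus strand), RING1 (chr6:33176083-33176233, plus strand) and RNF2 (chr1:185014372-185014522, plus strand) all lie upstream of the TSS used here and outside the annotated exons of the gene.
CBX2: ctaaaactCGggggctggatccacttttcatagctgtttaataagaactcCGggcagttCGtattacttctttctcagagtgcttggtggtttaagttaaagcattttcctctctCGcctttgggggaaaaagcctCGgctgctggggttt
CBX7: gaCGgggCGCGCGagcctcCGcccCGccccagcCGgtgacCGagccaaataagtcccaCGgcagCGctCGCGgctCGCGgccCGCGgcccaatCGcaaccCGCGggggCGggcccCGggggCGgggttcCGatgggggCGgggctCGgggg
CBX8: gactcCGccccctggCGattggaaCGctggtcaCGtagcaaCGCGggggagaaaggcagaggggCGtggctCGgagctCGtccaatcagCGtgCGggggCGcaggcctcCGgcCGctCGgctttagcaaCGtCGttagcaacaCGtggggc
RING1: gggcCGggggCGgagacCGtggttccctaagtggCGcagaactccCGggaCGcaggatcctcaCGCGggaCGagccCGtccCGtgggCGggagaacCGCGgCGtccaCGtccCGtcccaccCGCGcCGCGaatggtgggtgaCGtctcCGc
RNF2: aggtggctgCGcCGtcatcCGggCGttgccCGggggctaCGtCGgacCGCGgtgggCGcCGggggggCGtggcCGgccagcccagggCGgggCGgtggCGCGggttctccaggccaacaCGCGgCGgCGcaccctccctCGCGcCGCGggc
The CBX2 window, at -733 to -583 bp from the TSS, held 5 CpGs and does not describe the DNA next to the TSS. The windows of CBX8, RING1, CBX7 and RNF2, which lie between -318 and -44 bp, held 18, 23, 25 and 25. In 201-base windows at the same kind of summit, the GC content was 51.2% for CBX2 and between 60.7% and 79.6% for the other members. The lowest of these is PCGF2, whose window lies 241 bp from the TSS of the neighbouring gene PSMB3, so that its sequence describes that promoter. The member median was 71.1%, against 67.2% for 14660 protein-coding genes with a DMSO promoter peak. The median number of CpGs was 24 in members and 18 in all these genes. Of the short motifs searched on both strands, GGGCGG, the core of GC boxes, was in 6 of 9 member windows, that of PCGF2 included, and 59.1% of all. CACGTG, the E-box, was in the windows of CBX2 and CBX8, in the PCGF2 window beside PSMB3, and in 6.64% of all. CCAAT was in 2 and 25.9%. CCGGAAG, GCGCATGC and TATAAA were in 0 member windows, and in 13.5%, 3.22% and 1.88% of all. These matches describe letters in the windows and not bound factors.

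Within 3 kb of its TSS, each of the 9 members had a peak in both libraries. Of all protein-coding genes, 72.7% had one in DMSO and 78.7% in MAK683. The tallest such peak was lower in MAK683 at 8 of 9 members, and at 78.3% of the 16247 promoters with a peak in either library. It was at least 1.5-fold lower at 5 members (CBX6, CBX8, PCGF2, RNF2 and PHC1), against 32.8% of these promoters and 36.0% of the 14288 promoters with a peak in both libraries, a background added after seeing the values. None of the 9 was at least 1.5-fold higher, against 9.64% of all promoters and 3.65% of those with a peak in both libraries. Over the members, the log2 ratio (MAK683 over DMSO) had a median of -0.64 and ran from -1.06 in PCGF2 to 0.01 in CBX7. Over all promoters the median was -0.42. The members' lower heights thus lay beside a general drop of promoter peaks between these libraries. Relative to the median of all promoters, 1 member, PCGF2, was at least 1.5-fold lower, against 5.31% of promoters. The DMSO summit of that PCGF2 peak lies 241 bp from the TSS of PSMB3. The PCGF2 values in this paragraph therefore describe the promoter of the neighbour, and no other member was that much lower than the median. The counting intervals of 3 members (CBX6, PCGF2 and RNF2) excluded a log2 ratio of 0. The interval of 0 members excluded the median of all promoters. Single members were therefore not distinguishable from the general drop at this depth.

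The tallest peak near a TSS can belong to a neighbouring gene or an intron, so the peak nearest to each TSS was compared as well. It was lower in MAK683 at all 9 members, against 77.5% of promoters, and at least 1.5-fold lower at all 9, against 33.5% of all promoters and 37.0% of those with a peak in both libraries. For PCGF2 this pairs different sites, as described below. At CBX7 the paired peaks overlap, but the MAK683 summit lies outside the paired DMSO peak. Their region held 2 DMSO peaks and 1 MAK683 peak, and a ratio to the other DMSO peak was not computed. The calls of PCGF2 and CBX7 in the count of 9 thus depend on the pairing. CBX7 was kept in what follows. Without PCGF2 the other 8 log2 ratios lay between -1.04 and -0.64, with a median of -0.89, while promoters with a nearest peak in both libraries had a median of -0.47. Each of these 8 was below the median of promoters in the same quartile of GC content at the summit, a comparison added after seeing the values. The difference had a median of -0.44 and ran from -0.56 in BMI1 to -0.15 in PHC1. Over the 4 quartiles of GC content the medians of promoters with a peak in both libraries lay between -0.50 and -0.43.

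**Figure D1:**
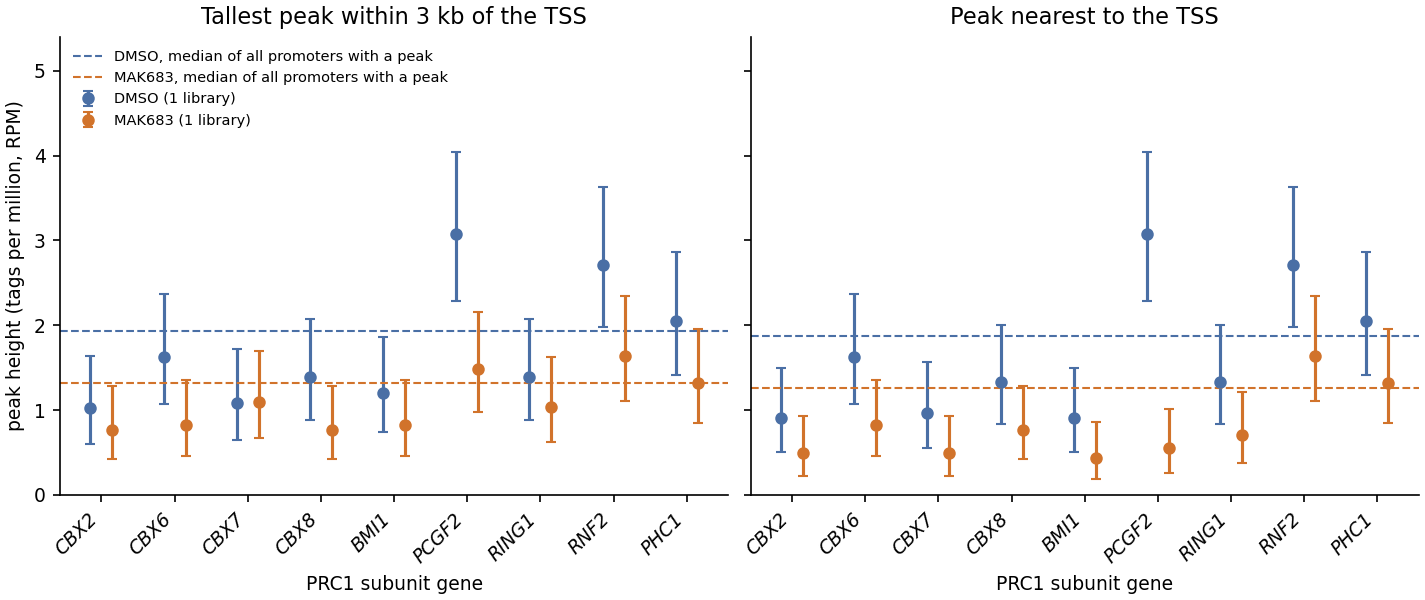
Height in RPM of the tallest peak within 3 kb of the TSS (left) and of the peak nearest to the TSS (right) for the 9 members, with 95% exact Clopper-Pearson intervals from counting error; dashed lines are the medians over all promoters with a peak in that library. RNF2 and PHC1 lie above the DMSO median in both panels, the chromobox genes lie below it, and the PCGF2 points on the right come from different sites.

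Among the chromobox readers, CBX2 (chr17:77751947-77761782, plus strand) had a low promoter in both libraries. Its tallest peak had 17 tags, 1.02 RPM, in DMSO and 14 tags, 0.766 RPM, in MAK683, a log2 ratio of -0.42 (-1.44 to 0.60), with the DMSO summit 3362 bp upstream of the TSS. The peak nearest to the TSS, with its summits 658 and 578 bp upstream, had 15 tags in DMSO and 9 in MAK683, a log2 ratio of -0.88 (-2.07 to 0.32). Both ratios were below 0 and both intervals included 0. A 10-tag peak in an intron, 706 bp past the TSS, and a 14-tag peak in the UTR, 8891 bp past it, were called in DMSO alone. Peaks covered 4371 bp of the CBX2 locus in DMSO and 1407 bp in MAK683, a ratio of 0.322 and the lowest of the 9 members.

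CBX8 (chr17:77765931-77775482, minus strand), which encodes another chromodomain subunit, lies next to CBX2. Its tallest peak, over the UTR with the DMSO summit 3245 bp past the TSS, had 23 tags, 1.39 RPM, in DMSO and 14 tags, 0.766 RPM, in MAK683. The log2 ratio was -0.85 (-1.81 to 0.10). The peak nearest to the TSS, with its DMSO summit 185 bp upstream, had 22 tags in DMSO and 14 in MAK683, a log2 ratio of -0.79 (-1.76 to 0.18). A further intronic region 1121 bp past the TSS had 19 tags in DMSO and 10 in MAK683. All 4 regions found in both libraries at CBX8 were lower in MAK683, and 2 more were called in DMSO alone. Peaks covered 75.6% of the locus in DMSO and 32.9% in MAK683.

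CBX2 and CBX8 are neighbours on chromosome 17. The stretch from 3 kb upstream of CBX2 to the far end of CBX8 spans 26.5 kb. It held 13 peaks in DMSO and 11 in MAK683, and these covered 14387 bp in DMSO and 5327 bp in MAK683. Of 14 merged regions, 8 were found in both libraries, 5 in DMSO alone and 1, a 9-tag peak between the genes, in MAK683 alone. Of the 8, 7 were lower in MAK683, and the median log2 ratio was -0.86. The exception, also between the genes, had 9 tags in DMSO and 11 in MAK683.

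**Figure D2:**
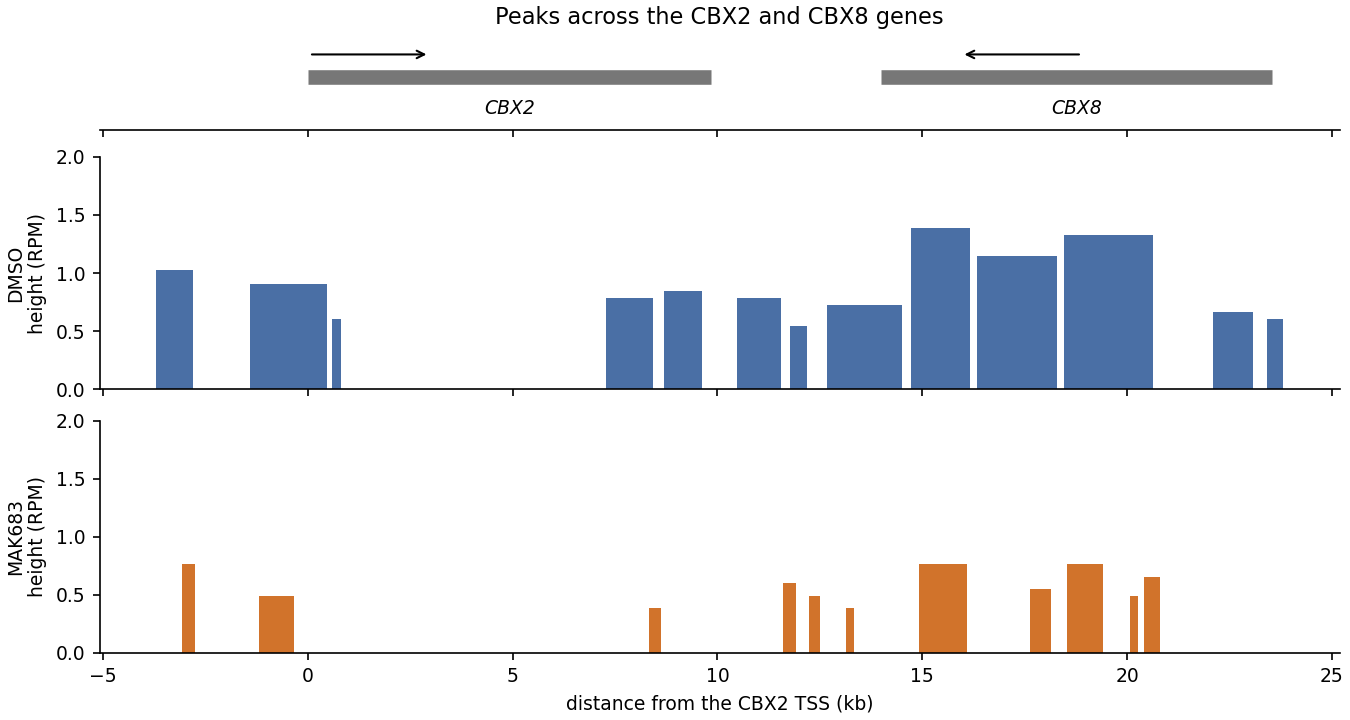
Peaks of the DMSO library (upper bars) and the MAK683 library (lower bars) across CBX2 and CBX8, by distance from the CBX2 TSS in kb; each bar spans a called peak, its height is in RPM, grey blocks are genes and arrows mark the direction of transcription. The tallest bars reach 1.39 RPM in DMSO and 0.766 RPM in MAK683, and most MAK683 bars are lower and narrower.

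CBX6 and CBX7 are both on chromosome 22. CBX6 (chr22:39257427-39268254, minus strand) had the larger difference at its tallest peak. That peak, with the DMSO summit 732 bp upstream of the TSS, had 27 tags, 1.63 RPM, in DMSO and 15 tags, 0.821 RPM, in MAK683. The log2 ratio was -0.99 (-1.90 to -0.08), and the same peak was also the nearest to the TSS. Of the other 6 regions at CBX6, 3 were lower in MAK683, 2 were higher and 1, with 8 tags, was called in DMSO alone. An intronic region 1475 bp past the TSS had 18 tags in DMSO and 13 in MAK683, and regions over the UTR 7554 and 8675 bp past it had 18 and 15 tags in DMSO and 10 and 12 in MAK683. An intronic region 3153 bp past the TSS had 11 tags in DMSO and 13 in MAK683. A region at the 3′ end of the gene had 8 tags in DMSO and 10 in MAK683.

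CBX7 (chr22:39516172-39548685, minus strand) was the member whose tallest promoter peak was not lower. This peak lay in the gene, with the DMSO summit in an intron 1495 bp past the TSS, and had 18 tags, 1.08 RPM, in DMSO and 20 tags, 1.09 RPM, in MAK683. The log2 ratio was 0.01 (-0.90 to 0.93). The peak nearest to the TSS gave another value, with 16 tags in DMSO, 9 in MAK683 and a log2 ratio of -0.97 (-2.15 to 0.21). Its summits were 136 bp upstream of the TSS in DMSO and 148 bp downstream in MAK683. The peaks overlap, but the MAK683 summit lies outside the DMSO peak, so this ratio may compare different sites. In DMSO 2 peaks were called in this region, against 1 in MAK683, and the other DMSO peak, further into the gene, was not used for the ratio. The tallest peak of the whole CBX7 locus in DMSO was another intronic one, 6876 bp past the TSS, with 22 tags in DMSO and 16 in MAK683. CBX7 had the most regions of the 9 members, 10 in all. Of these, 7 were in both libraries, 2 in DMSO alone and 1, a 7-tag peak over a coding exon, in MAK683 alone.

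BMI1 and PCGF2 encode the PCGF partners that define canonical PRC1. BMI1 (chr10:22610028-22620413, plus strand) had its tallest peak at different places in the libraries. In DMSO it was a 4432-bp region of the gene body with the summit in an intron 3003 bp past the TSS and 20 tags, 1.20 RPM. In MAK683 the same stretch was called as 5 separate peaks, the tallest with 15 tags. The tallest MAK683 value within 3 kb, 15 tags or 0.821 RPM, was also that of a peak 661 bp upstream of the TSS, which had 17 tags in DMSO. The log2 ratio of this upstream region was -0.32 (-1.32 to 0.68), above the median of all promoters. The log2 ratio of the tallest peaks was -0.55 (-1.52 to 0.41). Just past the TSS, in the UTR, 15 tags in DMSO stood against 8 in MAK683. The log2 ratio was -1.04 (-2.28 to 0.19), the lowest at the nearest peak of the 8 members other than PCGF2. Upstream of BMI1, 2 peaks of 11 and 9 tags were called in DMSO alone, and both lay closer to the TSS of COMMD3 than to that of BMI1.

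PCGF2 (chr17:36890151-36906070, minus strand) had the tallest peak of the 9 members in DMSO, but its summit belongs to a neighbour. The peak had 51 tags, 3.07 RPM, in DMSO and 27 tags, 1.48 RPM, in MAK683, a log2 ratio of -1.06 (-1.73 to -0.38). Its DMSO summit was 4164 bp upstream of the PCGF2 TSS and 241 bp from the TSS of PSMB3, a proteasome subunit gene. In DMSO a single call of 5000 bp ran from there almost to the PCGF2 TSS. In MAK683 the stretch was split in 2 peaks, and the one nearest to the PCGF2 TSS had 10 tags, with its summit 326 bp upstream. The deposited list gives 1 summit per call, so the DMSO height at that place is not known and no ratio for the PCGF2 TSS itself is given. In the body of PCGF2, 5 regions of 8 to 10 tags were called in DMSO alone and 0 in MAK683 alone. The region at the 3′ end had 22 tags in DMSO and 18 in MAK683.

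RING1 and RNF2 are the alternative catalytic subunits. At RING1 (chr6:33176277-33180499, plus strand) peaks covered 76.2% of the locus in DMSO and 67.4% in MAK683. Its tallest peak within 3 kb had 23 tags, 1.39 RPM, in DMSO and 19 tags, 1.04 RPM, in MAK683, a log2 ratio of -0.41 (-1.29 to 0.46). The DMSO summit of that peak was 373 bp from the TSS of HSD17B8, a neighbouring gene. The peak nearest to the RING1 TSS, with its summits 119 and 125 bp upstream, had 22 tags in DMSO and 13 in MAK683, a log2 ratio of -0.90 (-1.89 to 0.09). The tallest region of the locus ran past the end of the gene. Its DMSO summit lay downstream of the gene, 5015 bp past the TSS, and the region had 26 tags in DMSO and 21 in MAK683. RING1 had 1 region in DMSO alone and 1, a 9-tag peak over a coding exon, in MAK683 alone.

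RNF2 (chr1:185014658-185071735, plus strand) had the tallest promoter peak that belongs to a member itself. The peak, with the summit 243 bp upstream of the TSS in DMSO and 221 bp in MAK683, had 45 tags, 2.71 RPM, in DMSO and 30 tags, 1.64 RPM, in MAK683. The log2 ratio was -0.72 (-1.39 to -0.06). Among all promoters with a peak it stood at percentile 82.4 of height in DMSO and 70.4 in MAK683. The rest of this 60046-bp locus differed more by presence than by height. All 5 intronic regions, of 8 to 10 tags, were called in DMSO alone. A region 2785 bp upstream had 10 tags in both libraries.

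PHC1 (chr12:9066492-9094063, plus strand) had a single region, at its promoter, in both libraries. It had 34 tags, 2.05 RPM, in DMSO and 24 tags, 1.31 RPM, in MAK683, with the summits 380 and 450 bp past the TSS in an intron. The log2 ratio was -0.64 (-1.39 to 0.11). The peak was 1831 bp long in DMSO and 1380 bp in MAK683. PHC1 stood close to the middle of all promoters, at percentile 56.1 of height in DMSO and 51.0 in MAK683.

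**Figure D3:**
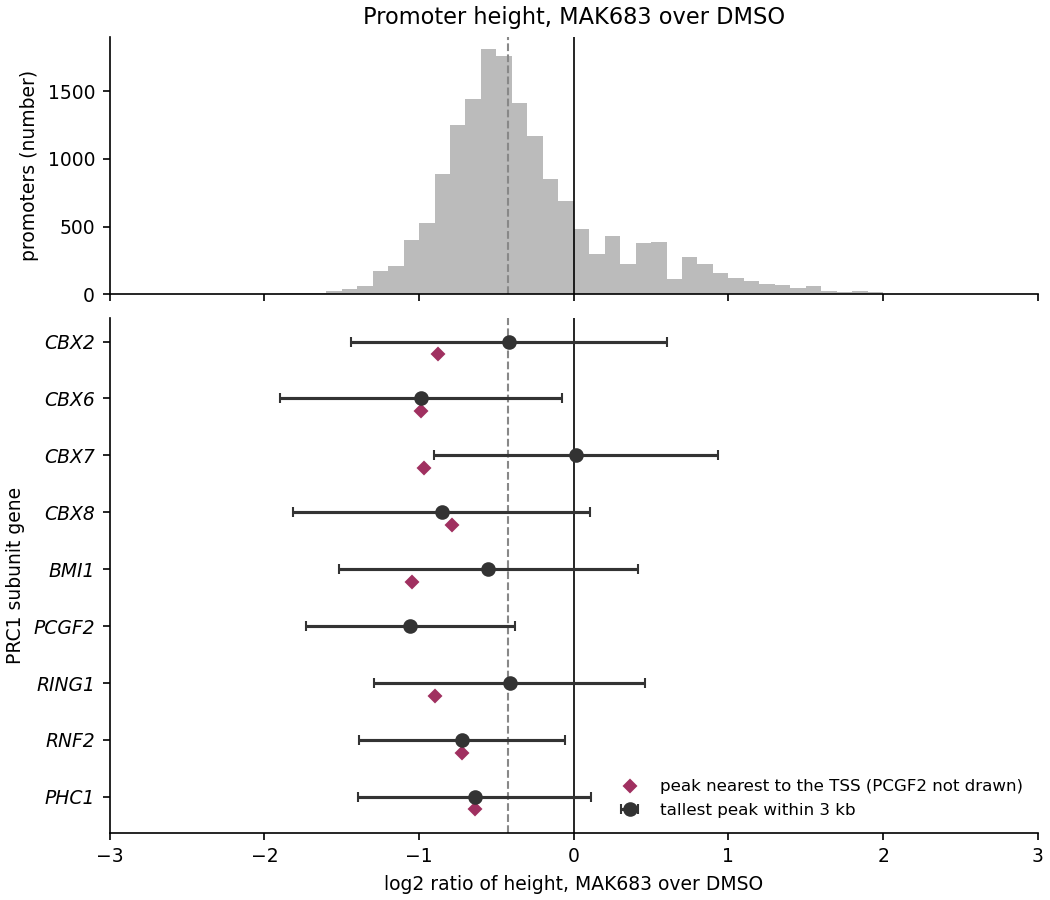
Upper panel, log2 ratio of promoter height (tallest peak, MAK683 over DMSO) for all 16247 promoters with a peak in either library, a missing peak set to the floor of 0.361 RPM; lower panel, the 9 members with 95% Poisson intervals (circles) and, for 8 of them, the ratio at the peak nearest to the TSS (diamonds). The dashed line is the median of all promoters, -0.42, the intervals of all 9 members include it, and the 8 diamonds lie to its left.

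In height, 6 of the 9 members stood in the lower part of all promoters. The median of their tallest peaks was 1.39 RPM in DMSO, against 1.93 RPM over all promoters with a peak, and 1.04 RPM in MAK683, against 1.31 RPM. In DMSO, CBX2 stood at percentile 18.1, CBX7 at 19.7, BMI1 at 23.4, CBX8 and RING1 at 29.5 and CBX6 at 38.5. The 95% intervals of these 6 DMSO heights overlapped each other, so their order is not resolved at this depth. PHC1, RNF2 and PCGF2 had the highest values, and the intervals of these 3 overlapped as well. The PCGF2 value is that of the peak with its summit beside PSMB3. The RING1 value is likewise that of a peak with its DMSO summit 373 bp from the TSS of HSD17B8. By the peak nearest to its own TSS, RING1 stood at percentile 30.2 in DMSO.

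Beyond the promoters, the 9 loci together held 56 regions with a peak in either library. Of these, 34 were found in both libraries, 20 in DMSO alone and 2 in MAK683 alone. MAK683-only regions made up 3.57% (95% Wilson interval 0.985 to 12.1%, over regions that are not independent of each other) at the member loci, and 38.4% of 123047 regions at the loci of all protein-coding genes. The share of DMSO-only regions was 35.7% (24.5 to 48.8%), against 29.3%, and that of regions in both libraries 60.7% (47.6 to 72.4%), against 32.4%. The protein-coding loci include many longer than any member locus, and these shares were not computed for loci of the members' length. The regions of a single library were small. They had 8 to 14 tags in DMSO and 7 and 9 tags in MAK683, while the lowest peak of either library had 6. DMSO-only regions outnumbered MAK683-only ones at 7 of 9 loci, against 46.1% of protein-coding loci with a peak. The exceptions were RING1, with 1 of each, and PHC1, with none. Chromosomes 17 and 22, which hold 5 of the members, had 3935 DMSO-only and 2067 MAK683-only regions in all, while chromosomes 1, 6, 10 and 12, which hold the other 4, had 13487 and 23424. The members had 12 DMSO-only regions and 1 MAK683-only region on the first pair and 8 and 1 on the other chromosomes.

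Peaks also covered fewer bases at the members in MAK683, a measure that falls with missing calls as well as with narrower peaks. The covered length fell from 52686 bp in DMSO to 33742 bp in MAK683, a ratio of 0.640, and it was smaller in MAK683 at all 9 loci, against 65.6% of protein-coding loci. Over all protein-coding loci the ratio was 0.978. Over the 11794 loci no longer than the longest member locus, a comparison added after seeing the values, it was 0.837. The ratio per locus had a median of 0.608 in members, from 0.322 at CBX2 to 0.885 at RING1, and of 0.793 over protein-coding loci. Of the 34 regions found in both libraries, 30 were lower in MAK683 and 4 higher. Their median log2 ratio was -0.60, against -0.37 at all protein-coding loci, where 78.7% were lower. Median promoter ratios on the members' chromosomes ran from -0.54 on chromosome 22 and -0.53 on chromosome 17 to -0.40 on chromosome 10. After the median of its own chromosome was subtracted from each member, the members' median was -0.18 and 0 of 9 were at least 1.5-fold lower.

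**Figure D4:**
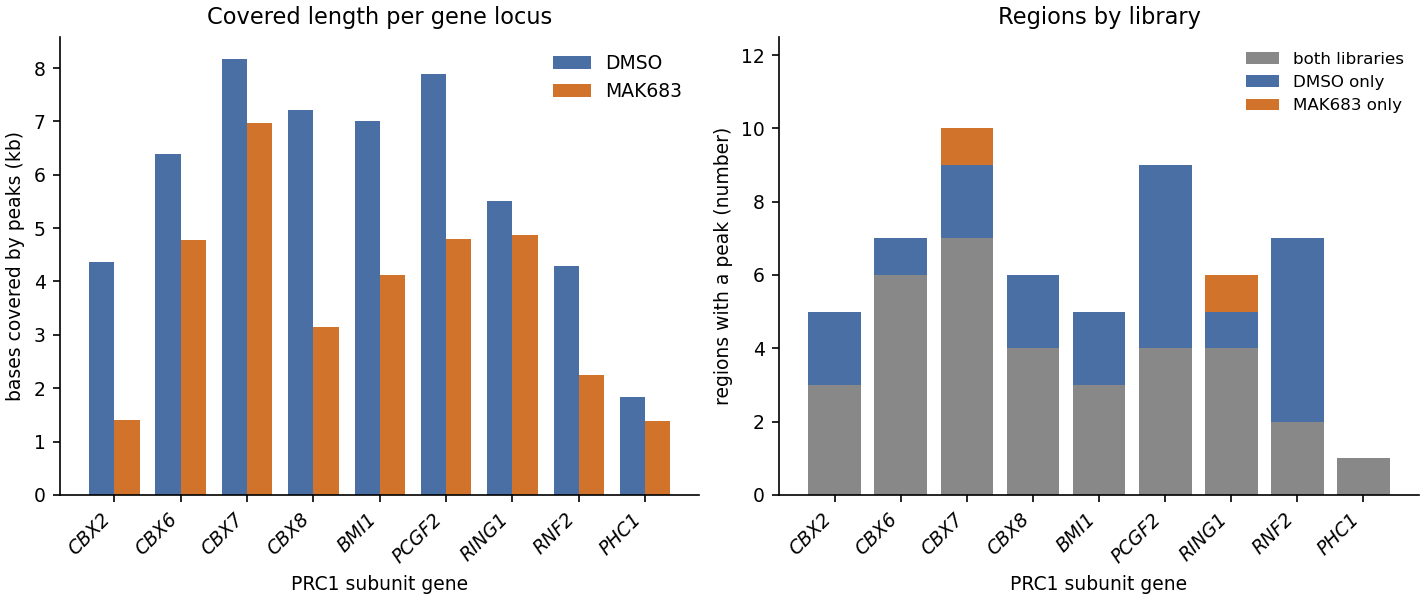
Left, bases covered by peaks in kb at each member locus in DMSO and MAK683; right, number of regions with a peak in both libraries (grey), in DMSO alone (blue) and in MAK683 alone (orange). The covered length is smaller in MAK683 at all 9 loci, and the 2 orange regions are at CBX7 and RING1.

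Other genes of the pathway were read from a list of 39, in 4 classes. All 39 had a promoter peak in both libraries. The tallest peak was lower in MAK683 at 35 and higher at 4, and the median log2 ratio was -0.44, beside the -0.46 of all promoters with a peak in both libraries. It was at least 1.5-fold lower at 15 genes and at least 1.5-fold higher at 2, against 36.0% and 3.65% of promoters with a peak in both libraries. The 5 other canonical subunit genes had a median of -0.44, with 1 at least 1.5-fold lower. The 26 variant PRC1 genes had a median of -0.43, with 10 lower and 1 higher by that measure. The 5 genes of H2A deubiquitinases and their partners, which remove the PRC1 mark, had a median of -0.59, with 3 lower and 1 higher. That median is the value of BAP1, 1 of those called lower. The peak nearest to the BAP1 TSS went the other way, with 15 tags in DMSO and 19 in MAK683. The 3 HP1 chromobox genes, whose proteins read another histone mark, had a median of -0.37, with 1 lower. At the peak nearest to the TSS, the median of all 39 was -0.46, with 16 at least 1.5-fold lower and 2 higher.

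The lowest ratio of the list was at PHC3, a paralog of PHC1, with 35 tags in DMSO and 18 in MAK683 and a log2 ratio of -1.10 (-1.92 to -0.28). WDR5, a scaffold shared with histone methyltransferases, had 25 and 14 tags and a log2 ratio of -0.97. L3MBTL2, an MBT-domain protein of a variant complex, had 39 and 22 tags and a log2 ratio of -0.96. At the other end, AUTS2, a subunit of a variant complex linked to gene activation, had 11 tags in DMSO and 20 in MAK683, a log2 ratio of 0.72 (-0.34 to 1.79). ASXL3, a partner of the deubiquitinase BAP1, had 13 and 22 tags and a log2 ratio of 0.62 (-0.37 to 1.61). PCGF5, a variant PCGF partner, had 25 and 33 tags and a log2 ratio of 0.26 (-0.49 to 1.01). The intervals of these 3 higher genes all included 0.

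**Figure D5:**
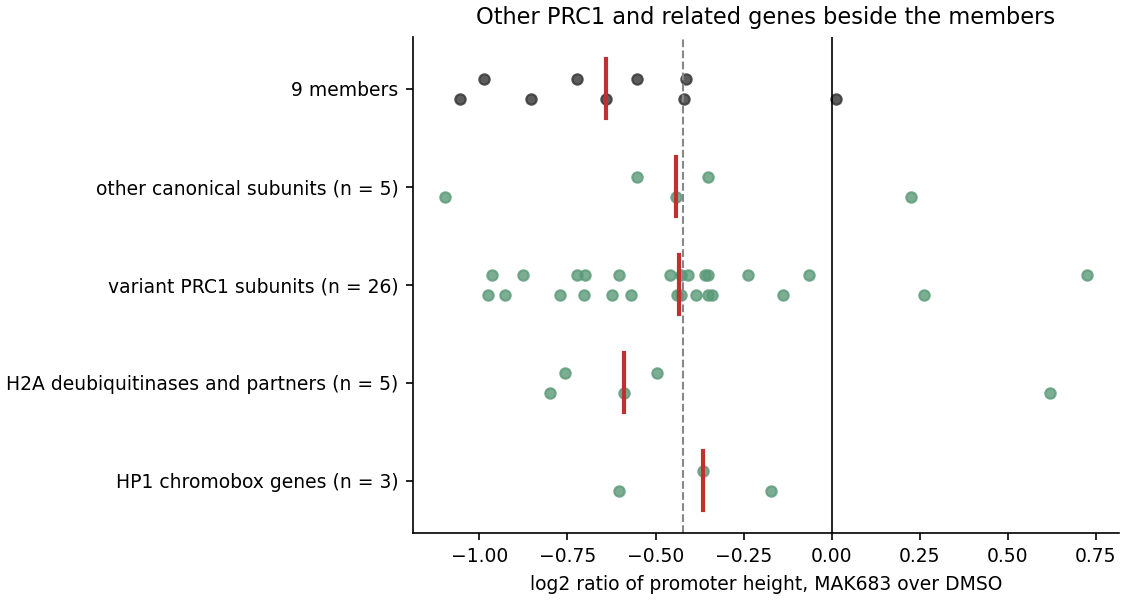
Log2 ratio of promoter height (tallest peak, MAK683 over DMSO) for the 9 members and for 39 related genes in 4 classes; each point is a gene, the red bars are medians, the solid line marks 0 and the dashed line the median of all promoters, -0.42. The class medians lie between -0.59 and -0.37, the member median is -0.64, and 4 of the 39 related genes lie above 0.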

How the data were processed

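ATAC-seq was performed on 1 DMSO and 1 MAK683 library of G401 cells. The study's methods state trimming of the reads and Bowtie2 alignment to hg19. Narrow peaks were called by the authors in each library separately; per the file headers this was done with MACS 2.1.1.20160309 without a control, with a shift of -100 bp, an extension of 200 bp, 1 tag kept per position and a q-value cutoff of 0.05. The submitters' processing notes list MACS2 2.1.0 and 2.2.7.1. The background was a single level per library, so regional coverage was not corrected, and peaks absent from a list may be just under the calling limit.

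Peak heights were deposited as a pileup signal in whole tags, with no correction for library size. The fold enrichment, as deposited, is a ratio that depends on depth and was used as an alternative scale. The deposited −log10 q-values were used to filter peaks, and the deposited −log10 p-values were not used.

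Heights were divided by the library's filtered tags and multiplied by 1000000. Gene positions came from GENCODE 44 lifted to GRCh37, with 1 TSS per gene (Ensembl canonical where marked), and no peak ran past the end of a GRCh37 chromosome. The promoter height of a gene is that of its highest peak reaching the 3-kb window around the TSS. A missing peak was set to 0.361 RPM, which is 6 tags in the DMSO library. Regions are peaks of both libraries merged at 1 bp of overlap. Heights have exact Clopper-Pearson intervals and log2 ratios Poisson intervals (normal approximation of the log). Called means a ratio past 1.5-fold. Sequences were read from the GRCh37 primary assembly. The interval and promoter code was tested on simulated data. Python 3.11.15, numpy 2.4.6, pandas 2.3.3 and scipy 1.17.1 were used.

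The 9 members and the gene lists were chosen with earlier results of these data known. The named genes were all members and the 3 highest and 3 lowest of the related genes. One related gene is not reported here. The comparisons by GC quartile, by locus length and with promoters that have a peak in both libraries were added after the values were seen. With 1 library per group there was no test.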

Additional observations from a re-analysis of the deposited data

How the results depend on the processing

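Of 157 values recomputed under other settings, 129 moved by less than their interval or by less than 1.5 times and 28 moved further. Of 81 values of single members under 9 settings, 79 stayed within the counting interval, 69 were below 0 and 5, of 3 members, changed sign: CBX2 and RING1 when the median of all promoters (0.0037 and 0.0082) or of the chromosome (0.11 and 0.03) was subtracted, and CBX7 at the nearest peak (-0.97). Subtracting the median of all promoters moved the members' median log2 ratio to -0.22, with 1 member at least 1.5-fold lower, and the related genes' median to -0.021, with 1 lower and 4 higher. Subtracting the median of the chromosome gave -0.18 with 0 members lower, and -0.053 with 1 related gene lower. The peak nearest to the TSS gave 9 members at least 1.5-fold lower. These include PCGF2, where different sites are paired, and CBX7, where the pairing is uncertain. Without depth scaling the related genes' median was -0.30, with 9 lower. The related genes at least 1.5-fold higher numbered 1 with the TSSs of all basic transcripts and 0 with a −log10 q of at least 10, where 5 members kept a MAK683 promoter peak. At the member loci, a −log10 q of at least 5 left 47 DMSO and 25 MAK683 peaks, with 23 DMSO and 25 MAK683 peaks shared. At 10 it left 24 DMSO and 7 MAK683 peaks, with 8 and 7 shared. An overlap of 50% left 18 and 18 shared. With 10 kb around the gene body there were 81 DMSO peaks, 51 of them shared, and 77 MAK683 peaks, 70 of them shared. The main setting had 57 and 47 peaks, so the excess of DMSO peaks depends on the window and on the q-value limit. No paired analysis was possible because each group has 1 library. With 8 to 51 tags per promoter peak, depth limits single members to differences of about their intervals.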
